A study of Mus musculus with 6 samples.

Results

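Mitochondrial ribosomal proteins are encoded in the nucleus, made in the cytosol and imported into mitochondria, where they join mitochondrially encoded ribosomal RNA to form the large and the small subunit of the mitoribosome. The mitoribosome translates the few mRNAs of the mitochondrial genome, which code for core parts of the respiratory chain and of ATP synthase. In adipocytes the oxidative metabolism of mitochondria serves both the synthesis and the breakdown of lipids. The genes described here were all gene symbols that begin with Mrpl or Mrps followed by a number, 77 of the 24421 symbols of the count tables. By symbol 48 of them belong to the large subunit (Mrpl) and 29 to the small subunit (Mrps). The genes were taken by name and not by a measured value, although earlier results of these data were known when they were chosen.

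The counts come from 3T3-L1 cells, a mouse cell line that differentiates into adipocytes in culture and that the labels give the strain C57BL/6. Cells were differentiated from 2 days after confluency with 870 nM insulin, 5 µM TZD, 1 µM Dex and 500 µM IBMX in 10% CS, and from day 3 without IBMX and Dex. On day 7 they received 100 pfu/cell of an adenovirus that carried *LacZ* (AdLacZ, the control) or a codon-optimised murine *Lmo3* (Ad*Lmo3*), so that both groups were infected, and RNA was taken 72 h later from 3 separate infections per virus. All libraries derive from 1 cell line, and the control differs from untreated adipocytes by the infection itself. The question for these genes was whether the mRNAs of the mitoribosome differed between Ad*Lmo3* and AdLacZ adipocytes, and whether the large and the small subunit differed from each other in this.

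Libraries held 28035639 to 38332335 counts on genes, so that 3 counts correspond to 0.0783 to 0.107 CPM (counts scaled to the total of each library). *Lmo3* itself had a count of 0 in all 6 libraries, and the virus labels could not be checked through this gene. The 10 adipocyte markers, among them *Adipoq*, *Fabp4* and *Plin1*, were all detected. Their sum was 20954 to 23174 CPM of the library total with AdLacZ and 27415 to 32470 CPM with Ad*Lmo3*, and 8 of the 10 were called higher in Ad*Lmo3*. The 8 preadipocyte markers summed to 1317 to 1972 CPM and to 1445 to 1911 CPM, with 0 called by edgeR, 0 at an unadjusted p under 0.05 and 0 by DESeq2. Of the other cell types, 5 macrophage markers summed to at most 5.97 CPM and 4 endothelial markers to at most 2.43 CPM in any library, none of them at 0 throughout. In these bulk libraries fewer cells of a type and less RNA per cell cannot be told apart, and the part of the adipocyte marker difference in the values below was not tested.

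All 77 mitoribosomal protein genes were expressed, and all 77 passed the filter on low counts. Mitochondrially encoded mRNAs, which the mitoribosome translates, were not analysed here, and the count tables held 0 symbols that begin with mt-. The lowest count of any of the 77 genes in any library was 67. Together the 77 genes took 0.367% to 0.407% of the gene counts. Mean levels in AdLacZ libraries ran from 2.39 to 170.7 CPM after TMM normalization with a median of 44.1 CPM, and 61 of the 77 lay between 20 and 100 CPM. Per kilobase of the principal transcript, which allows levels of different genes to be set side by side, the median was 28.4 CPM, against 9.74 CPM over the tested genes with a position in the annotation. The highest level per kilobase was that of *Mrps6*, a small-subunit protein with a bacterial homolog, at 201.8 CPM per kilobase, but 15.9% of its 75-base stretches also occur elsewhere, and *Slc5a3* overlaps it. *Mrps36* (3.41 CPM per kilobase) and *Mrpl23* (4.16 CPM per kilobase) were among the lowest. Pseudogenes share stretches with both of them, 11.3% of those of *Mrps36* and 10.1% of those of *Mrpl23*.

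In Ad*Lmo3* adipocytes most of these mRNAs stayed within a narrow range of the control. Of the 77 genes, 1 was called lower and 0 were called higher by edgeR's quasi-likelihood test at an adjusted p-value under 0.05. Over all 12766 tested genes, 4.28% were called, 2.71% higher and 1.57% lower in Ad*Lmo3*. At an unadjusted p under 0.05 there were 10 of the 77 (2 higher, 8 lower), or 12.99%, where the share over all tested genes was 20.6%. DESeq2 called 3 of them, 1 higher and 2 lower, beside 8.87% of all genes with an adjusted p in that test. The fitted log2 fold changes of the 77 genes ran from -0.35 to 0.34 with a median of -0.014, and the median over all tested genes was 0.0014. Without regard to sign the median was 0.08 for the mitoribosomal genes and 0.13 for all tested genes.

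**Figure D1:**
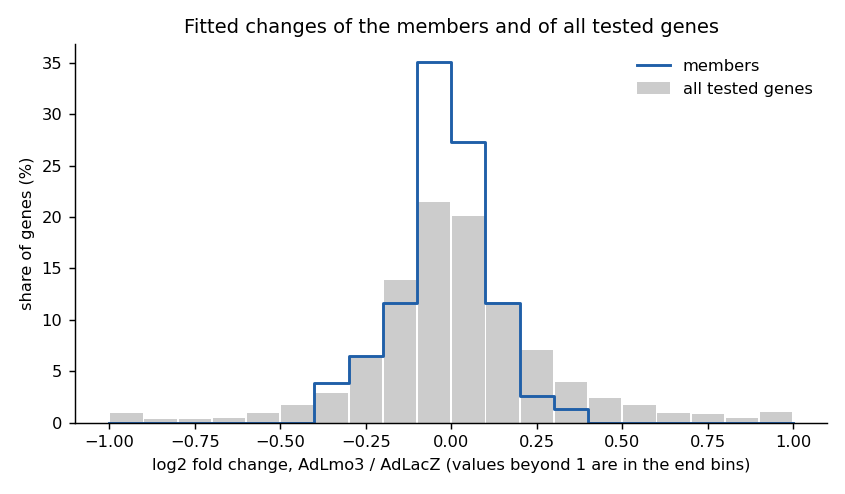
Share of genes (vertical axis, %) by fitted log2 fold change of Ad*Lmo3* over AdLacZ (horizontal axis, bins of 0.1), for the 77 mitoribosomal protein genes (line) and all 12766 tested genes (bars). No mitoribosomal gene lies beyond -0.35 or 0.34, and 48 of the 77 lie within 0.1 of zero.

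For most members the size of any difference could be bounded. The 95% interval of the log2 fold change lay inside -0.5 to 0.5 (from 29.3% lower to 41.4% higher) for 73 of the 77 genes, or 94.8%, against 65.4% of all tested genes. Such bounds depend on level and spread, and the mitoribosomal genes had a higher median level than all tested genes (44.1 against 29.6 CPM). Their median coefficient of variation between replicates was 5.44% in AdLacZ and 4.56% in Ad*Lmo3* libraries, against 7.92% and 7.85% over all tested genes. In 9 genes all Ad*Lmo3* libraries were above all AdLacZ libraries, or 11.7%, and in 13 genes all were below, or 16.9%. The corresponding shares over all tested genes were 13.3% and 13.2%.

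With all libraries and genes taken by symbol, the medians of the subunits differed by less than the spread between libraries. The large-subunit genes had a median log2 fold change of -0.014, with the middle range of genes from -0.08 to 0.05, and 20 fitted higher and 28 lower. The small-subunit genes had a median of -0.0093, from -0.08 to 0.10, with 13 fitted higher and 16 lower. The single call was in the large subunit. Groups did not overlap there for 3 genes upward (6.25%) and 9 downward (18.75%). In the small subunit this held for 6 upward (20.7%) and 4 downward (13.8%). The shares over all tested genes were 13.3% and 13.2%, and the contrast between the subunits was not tested. The interval stayed inside -0.5 to 0.5 for 46 of the 48 large-subunit and 27 of the 29 small-subunit genes.

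**Figure D2:**
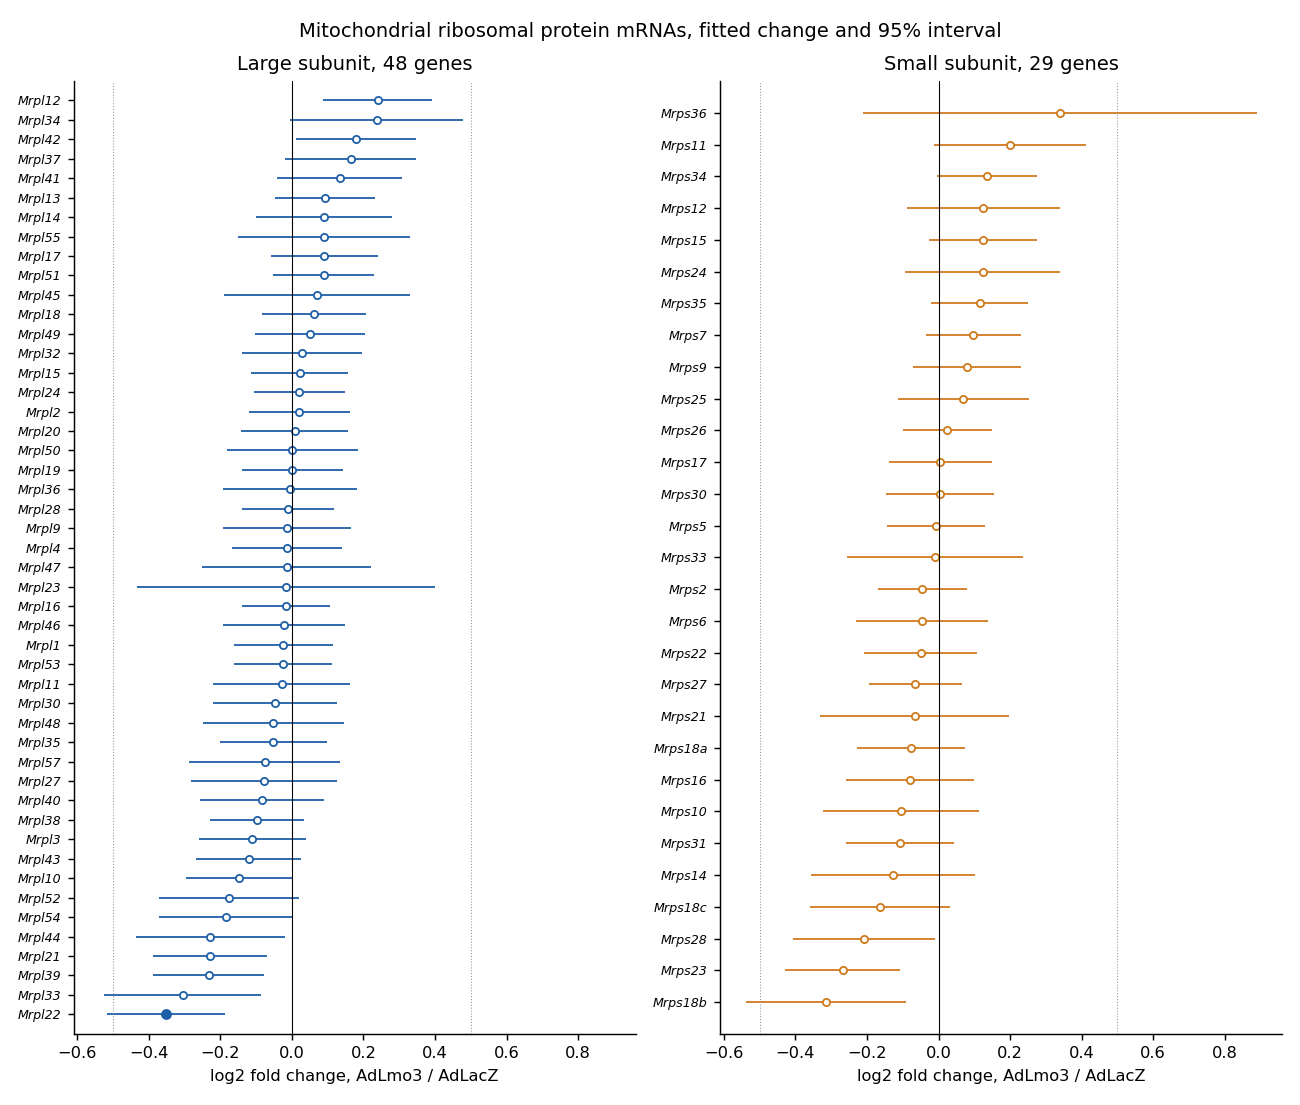
Fitted log2 fold change of Ad*Lmo3* over AdLacZ (horizontal axis) with its 95% interval for each mitoribosomal protein gene, large subunit on the left and small subunit on the right, ranked by value. The filled point is the gene called by edgeR (*Mrpl22*), and dotted lines mark -0.5 and 0.5, within which 73 of the 77 intervals lie.

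Summed over genes, the 48 large-subunit genes held 2457, 2414 and 2442 CPM in AdLacZ replicates 1 to 3 and 2389, 2475 and 2404 CPM in Ad*Lmo3* replicates 1 to 3. The small-subunit genes held 1457, 1418 and 1416 CPM in AdLacZ and 1383, 1443 and 1408 CPM in Ad*Lmo3* libraries. Groups overlapped in both sums, and in each of them Ad*Lmo3* replicate 1 was the lowest library. The means were 2438 ± 22.1 and 2423 ± 45.7 CPM for the large subunit, and 1430 ± 23.2 and 1411 ± 30.3 CPM for the small subunit (SD, n = 3). The ratio of large to small was 1.70 ± 0.0193 in AdLacZ and 1.72 ± 0.0103 in Ad*Lmo3* libraries (SD, n = 3), a difference of 0.0126 that is smaller than the pooled SD between replicates of 0.0155. Replicates of one virus differed as much in this as the viruses did, since the ratio ran from 1.686 to 1.725 within AdLacZ.

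**Figure D3:**
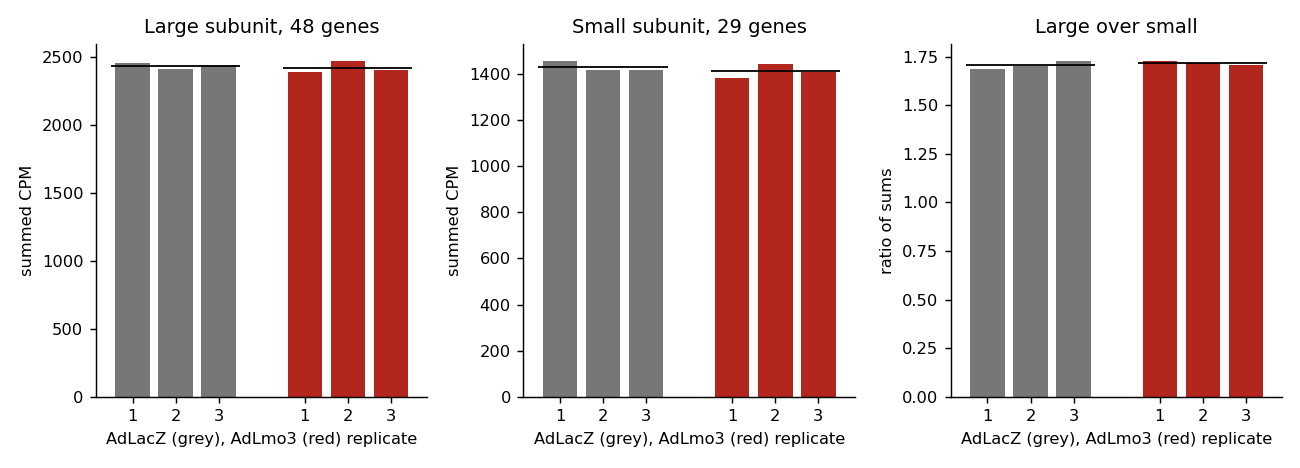
Summed TMM-normalised CPM of the large-subunit genes (left) and small-subunit genes (middle) and the ratio of the sums (right), with 1 bar per library, AdLacZ in grey, Ad*Lmo3* in red, and a line at each group mean. The bars of the groups overlap in all 3 panels, with ratios from 1.686 to 1.728.

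Symbols do not always give the place of a protein. *Mrps18a* and *Mrps30* encode proteins that sit in the large subunit, and *Mrps36* encodes a component of the α-ketoglutarate dehydrogenase complex. With genes assigned by structure the medians were -0.014 for 50 large-subunit and -0.027 for 26 small-subunit genes, so that the small subunit was then the lower one. The difference between the subunit medians thus turned its sign with the assignment, from -0.0047 by symbol to 0.013 by structure, each under the pooled SD of 0.0157 that libraries of a group showed in this difference. It was above that SD, with the large subunit the higher one, without genes that share sequence (0.0358), without Ad*Lmo3* replicate 2 (0.0231) and without AdLacZ replicate 2 (0.0166). That SD was taken over all genes by symbol and all libraries. It does not measure the spread with genes by structure or with fewer genes or libraries. *Mrps18a* (log2 fold change -0.08, adjusted p = 0.574, edgeR) and *Mrps30* (0.004, adjusted p = 0.981) did not pass the test. The mitoribosome joins proteins inherited from the bacterial ribosome with others that are particular to mitochondria. The 46 genes with a bacterial homolog had a median of -0.012, and the 31 particular to mitochondria a median of -0.025. *Mrps18a* and *Mrps18b* were counted among the 31, although both are related to a bacterial protein, as is *Mrps18c*, counted among the 46.

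*Mrpl22*, whose protein lines the exit tunnel of the large subunit, was the single gene called. It lies on chromosome 11 of GRCm38 from 58171661 to 58179565. It had 26.7, 26.4 and 27.5 CPM in AdLacZ replicates 1 to 3 and 19.9, 21.7 and 21.6 CPM in Ad*Lmo3* replicates 1 to 3. Groups did not overlap, and the gap between them was larger than the spread within either. *Mrpl22* fell by 21.7%, a log2 fold change of -0.35 (SE 0.0715, 95% interval -0.52 to -0.19, adjusted p = 0.0345, edgeR). The call was lost without any 1 of the 6 libraries, with adjusted p from 0.0724 to 0.146 and the log2 fold change between -0.37 and -0.31. In *Mrpl22*, *Gm6997* holds 17.3% of the 75-base stretches, so part of its reads cannot be assigned with certainty.

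*Mrps23*, a small-subunit protein particular to mitochondria, had the next smallest p-value among the genes fitted lower. In AdLacZ replicates 1 to 3 it had 89.1, 88.8 and 86.6 CPM, and in Ad*Lmo3* replicates 1 to 3 75.0, 77.6 and 66.9 CPM. All Ad*Lmo3* values lay below all AdLacZ values, with Ad*Lmo3* replicate 3 the lowest. The log2 fold change of -0.27 (SE 0.0702) had an adjusted p of 0.0756 in edgeR and of 0.0339 in DESeq2. No stretch of *Mrps23* is shared with another gene, and it lies on chromosome 11 from 88204388 to 88211507.

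For *Mrpl12* the fitted difference had the other sign. Its protein forms the stalk of the large subunit, which recruits translation factors to the ribosome. *Mrpl12* had 123.1, 129.5 and 120.4 CPM in AdLacZ replicates 1 to 3 and 148.1, 152.9 and 139.6 CPM in Ad*Lmo3* replicates 1 to 3, again without overlap. The log2 fold change of 0.24 (SE 0.0661) had an adjusted p of 0.0866 in edgeR and of 0.0291 in DESeq2. *Mrpl10*, which anchors the stalk, had a value of -0.15 (adjusted p = 0.251, edgeR), and *Mrpl11*, at the stalk base, had -0.03 (adjusted p = 0.892). Levels of *Mrpl10* were 150.3, 140.2 and 148.4 CPM in AdLacZ and 125.9, 135.6 and 135.0 CPM in Ad*Lmo3* libraries. The 2 proteins of the stalk thus had fitted differences of opposite sign, in *Mrpl10* as in *Mrpl12* without overlap of the groups, and the difference between them was not tested.

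**Figure D4:**
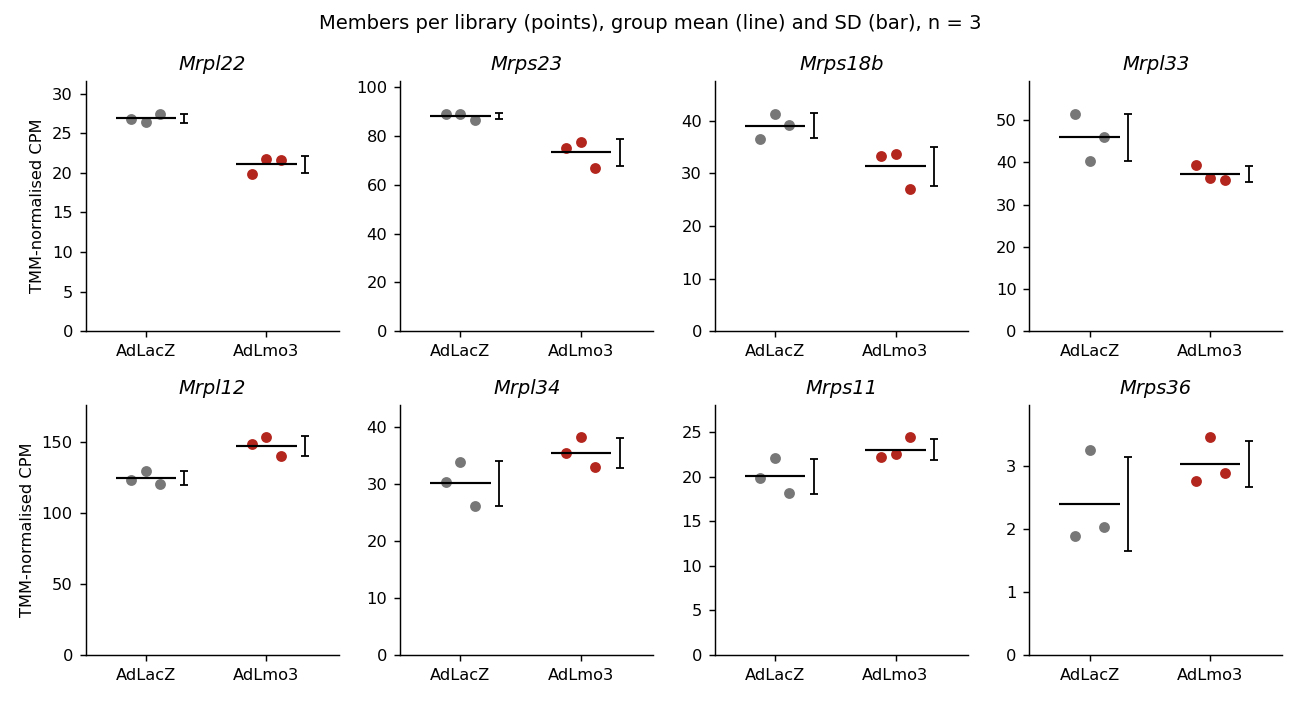
TMM-normalised CPM (vertical axis, from 0) of 8 mitoribosomal protein genes in each library, AdLacZ in grey and Ad*Lmo3* in red, with the group mean as a line and the SD as a bar (n = 3). The groups do not overlap for *Mrpl22*, *Mrps23*, *Mrps18b*, *Mrpl33*, *Mrpl12* and *Mrps11* and overlap for *Mrpl34* and *Mrps36*.

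Among the other genes with the most negative values, *Mrps18b* is 1 of the 3 mammalian relatives of a single bacterial protein, beside *Mrps18a* and *Mrps18c*. It had 36.6, 41.3 and 39.1 CPM in AdLacZ and 33.4, 33.6 and 27.03 CPM in Ad*Lmo3* libraries, without overlap, with a log2 fold change of -0.31 (adjusted p = 0.118, edgeR). Of its stretches, 27.3% occur in other genes. *Mrps18c* had a value of -0.16 (adjusted p = 0.327). *Mrpl33*, a large-subunit protein with a bacterial homolog, had 51.5, 40.3 and 46.0 CPM in AdLacZ and 39.4, 36.3 and 35.8 CPM in Ad*Lmo3* libraries (-0.31, adjusted p = 0.1204, edgeR). The groups parted by less than 1 CPM there, between AdLacZ replicate 2 and Ad*Lmo3* replicate 1. *Mrpl39* (-0.23), *Mrpl21* (-0.23), *Mrpl44* (-0.23) and *Mrps28* (-0.21) had adjusted p-values from 0.1005 to 0.220 in edgeR.

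The largest positive value of all was that of *Mrps36* (0.34, 95% interval -0.21 to 0.89, adjusted p = 0.483, edgeR), a gene at 1.88, 3.25 and 2.04 CPM in AdLacZ and 2.75, 3.45 and 2.89 CPM in Ad*Lmo3* libraries. Its groups overlapped, and its interval was the widest of the 77. *Mrpl34* had 30.2, 33.9 and 26.0 CPM in AdLacZ and 35.3, 38.1 and 32.9 CPM in Ad*Lmo3* libraries, with AdLacZ replicate 2 inside the range of Ad*Lmo3* (0.24, adjusted p = 0.2495). *Mrps11* (0.20), *Mrpl42* (0.18), *Mrpl37* (0.16) and *Mrps34* (0.14) had adjusted p-values from 0.208 to 0.294 in edgeR. In *Mrps34*, 77.8% of the exon sequence overlaps *Mapk8ip3* or *Nme3*. *Mrps12*, which shapes the decoding site of the small subunit, had a value of 0.13 (adjusted p = 0.511).

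Several of these genes are known from inherited defects of oxidative phosphorylation in people, among them *Mrps22*, *Mrps28*, *Mrps34* and *Mrpl44*. None of the genes just named passed the test by edgeR or by DESeq2 here, and the unadjusted p was under 0.05 for *Mrpl44* and *Mrps28*. This does not extend to other mitoribosomal genes with such defects, which were not collected here. *Mrps22* had 35.4, 32.1 and 34.6 CPM in AdLacZ and 31.6, 33.1 and 33.9 CPM in Ad*Lmo3* libraries, with overlapping groups and a log2 fold change of -0.05. Of *Mrpl44*, AdLacZ libraries had 50.6, 56.3 and 59.6 CPM and Ad*Lmo3* libraries 43.7, 52.5 and 46.1 CPM, so that the groups overlapped.

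Libraries of the same virus differed from each other over these genes. Ad*Lmo3* replicate 1 was the lowest of the 6 libraries for 25 of the 77 genes, whereas Ad*Lmo3* replicate 2 was the lowest for 6. The highest library was AdLacZ replicate 1 for 21 genes, replicate 2 for 9 and replicate 3 for 18, and it was Ad*Lmo3* replicate 2 for 17 and replicates 1 and 3 for 6 each. Over all tested genes Ad*Lmo3* replicate 1 was the lowest library for 15.9%, against 32.5% of the mitoribosomal genes. Without Ad*Lmo3* replicate 1 the median log2 fold change of the 77 genes was 0.0015 in place of -0.014.

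The genes lie on 17 chromosomes, with at most 10 on one. *Mrpl22*, *Mrps23* and *Mrpl12* all lie on chromosome 11. Of the 77 genes, 18 start within 1000 bases of a gene on the opposite strand that points away from them, or 23.4%, against 6.70% of 19910 protein-coding genes and 9.76% of the 12293 tested genes with a position. The 18 had a median log2 fold change of -0.0026 and the other 59 a median of -0.014, with 0 calls by edgeR and 1 at an unadjusted p under 0.05 among the 18 and 0 by DESeq2. Overlap and shared sequence touch many of these genes: 23 overlap an exon of another gene and 46 share 75-base stretches with one. The 30 genes with neither had a median of -0.020 and 0 calls by edgeR, with 3 at an unadjusted p under 0.05 and 1 call by DESeq2. Over all tested genes, edgeR called 4.28%, 20.6% had an unadjusted p under 0.05, and DESeq2 called 8.87% of those with an adjusted p. In sets this small, few or no calls say little.

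RefSeq gives a promoter window, from 250 bases before to 50 after a start, for 68 of the 77 genes (74 windows, GRCm38.p6). Nuclear genes for mitochondrial proteins often carry sites for nuclear respiratory factor 1 (encoded by *Nrf1*), for ETS proteins such as GABPA, and for YY1, so the cores of these motifs were searched on both strands. The core GCGCATGC stood in 10.8% of the windows against 5.24% of those of all tested genes and 2.71% of all windows of the table. The ETS core CCGGAAG stood in 33.8%, against 17.1% and 8.86%, and the YY1 core AAGATGGC in 16.2%, against 4.33% and 2.75%. Such matches describe the letters of a window and not a bound site.

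The 150 bases before the start are shown for the called gene *Mrpl22*, for *Mrpl33* and *Mrpl17*, which hold the same nuclear respiratory factor core at a similar place but had differences of opposite sign, and for *Mrpl12*, which was higher in all Ad*Lmo3* libraries and holds none of the 3 cores. Capitals mark the core GCGCATGC and the ETS core CCGGAAG. *Mrpl33* and *Mrpl17* hold the ETS core too, in the part of their windows that is not printed. *Mrpl12* does hold the first of these with 1 open base (GCGCANGC), which is not marked. *Mrpl22* is at chr11:58171514-58171663 on the plus strand, *Mrpl33* at chr5:31613801-31613950 on the plus strand, *Mrpl17* at chr7:105811088-105811237 on the minus strand and *Mrpl12* at chr11:120484487-120484636 on the plus strand of GRCm38.p6.
Mrpl22: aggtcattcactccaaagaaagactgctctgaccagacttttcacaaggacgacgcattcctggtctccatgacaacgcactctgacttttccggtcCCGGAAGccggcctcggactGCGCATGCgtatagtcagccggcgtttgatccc
Mrpl33: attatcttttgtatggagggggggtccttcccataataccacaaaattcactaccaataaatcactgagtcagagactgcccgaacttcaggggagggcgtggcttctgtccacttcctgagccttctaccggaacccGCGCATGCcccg
Mrpl17: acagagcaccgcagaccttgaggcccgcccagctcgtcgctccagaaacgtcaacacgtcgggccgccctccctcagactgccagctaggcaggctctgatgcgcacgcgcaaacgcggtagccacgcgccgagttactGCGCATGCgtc
Mrpl12: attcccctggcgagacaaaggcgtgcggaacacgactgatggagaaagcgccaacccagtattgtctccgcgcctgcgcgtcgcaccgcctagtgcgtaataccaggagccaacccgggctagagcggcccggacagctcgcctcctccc

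In *Mrpl22* the core GCGCATGC ends 25 bases before the start and the ETS core 46 bases before it, and in *Mrpl33* and *Mrpl17* the former ends 4 and 3 bases before the start. The 8 genes with the core GCGCATGC were *Mrpl22*, *Mrps18b*, *Mrpl33*, *Mrpl39*, *Mrpl10*, *Mrpl9*, *Mrpl32* and *Mrpl17*, the last with a log2 fold change of 0.09 (adjusted p = 0.494, edgeR). Of these 8, 6 were fitted lower, with a median log2 fold change of -0.19, against -0.012 in the 60 genes without it. This grouping was made after the values had been seen, has no test and rests on few genes. The groupings by the other motifs below were not part of the planned analysis and have no test either. Of the 8 genes, *Mrpl22*, *Mrps18b*, *Mrpl33* and *Mrpl17* also hold the ETS core. With 1 open base (GCGCANGC, which includes the core itself) 22 genes held the motif, *Mrpl12* among them. The median of the 22 was -0.031, with 13 of 22 fitted lower. Among all tested genes with a window, the 593 that held GCGCATGC had a median of -0.015, against 0.0034 in the 9086 without it. Of these 593, 3 were called lower and 7 higher, where 1.57% and 2.71% of all tested genes were. For the ETS core the median was -0.075 in 25 mitoribosomal genes with it and 0.0019 in the 43 without it. Over all tested genes with a window it was -0.037 in the 1936 with the ETS core and 0.015 in the 7743 without it. For the YY1 core it was 0.074 in 12 mitoribosomal genes with it and -0.023 in the 56 without it. Over all tested genes with a window it was -0.015 in the 511 with the YY1 core and 0.0033 in the 9168 without it.

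Of the 12 tested regulators of nuclear genes for mitochondria, transcription factors and coactivators together, 4 were fitted higher and 8 lower. *Nrf1* had 28.5, 30.9 and 29.7 CPM in AdLacZ and between 23.1 and 24.9 CPM in the 3 Ad*Lmo3* libraries, without overlap, a log2 fold change of -0.31 (adjusted p = 0.0495, edgeR). That call lies at the threshold and was lost without any 1 of the libraries, with adjusted p from 0.0856 to 0.175. *Gabpa*, which codes for the ETS protein named above, had a value of -0.16 (adjusted p = 0.189, edgeR). *Tfam*, which packages and helps transcribe mitochondrial DNA, had -0.03 (adjusted p = 0.849). *Gabpb1* (-0.19, adjusted p = 0.182, edgeR), *Yy1* (-0.10, adjusted p = 0.478) and *Esrra* (0.29, adjusted p = 0.129) were named after their values were seen. *Ppargc1a*, a coactivator of mitochondrial biogenesis, had a value of 0.08 (adjusted p = 0.668). Its relative *Ppargc1b*, named after its values were seen, had 11.1, 17.9 and 12.5 CPM in AdLacZ and 34.8, 24.3 and 20.7 CPM in Ad*Lmo3* libraries, a log2 fold change of 0.94 with an adjusted p of 0.0610 in edgeR and of 1.98e-04 in DESeq2. Of the 12 regulators tested, 1 was called by edgeR and 2 by DESeq2 (1 higher, 1 lower), 5 had an unadjusted p under 0.05 (2 higher, 3 lower), or 41.7% against 20.6% of all tested genes, and the median of the list was -0.035.

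Over all tested genes, 4.28% were called by edgeR and 20.6% had an unadjusted p under 0.05. DESeq2 called 8.87% of those with an adjusted p in that test. The counts for other genes of mitochondrial translation, here and in the next paragraph, stand beside these shares. The 6 mitoribosomal proteins with other names, which the symbol rule does not reach, had 0 calls by edgeR and by DESeq2, with 1 at an unadjusted p under 0.05. These were *Dap3* (0.07), *Aurkaip1* (0.04), *Gadd45gip1* (-0.04), *Ptcd3* (-0.11), *Ict1* (-0.18) and *Chchd1* (-0.18), and the signs of *Dap3* and *Aurkaip1* turned when libraries were scaled by their totals. *Mrpl57*, at times also listed by another name, had a value of -0.08 (adjusted p = 0.703, edgeR). Of 30 tested genes for mitoribosome assembly and rRNA handling, 1 was called, *Trub2*, a pseudouridine synthase. *Trub2* had 28.7, 29.4 and 27.96 CPM in AdLacZ and 20.6, 20.4 and 22.7 CPM in Ad*Lmo3* libraries (log2 fold change -0.44, adjusted p = 0.0184, edgeR), without overlap of the groups.

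Among 15 translation factors and mRNA handling proteins 0 were called by edgeR, with 3 at an unadjusted p under 0.05 and 1 by DESeq2. The latter was *Lrpprc*, which binds mitochondrial mRNAs, with -0.23 (adjusted p = 0.0956 in edgeR and 0.0351 in DESeq2). *Tufm*, the mitochondrial elongation factor that brings tRNAs to the ribosome, had a value of -0.01 (adjusted p = 0.973). Of 19 aminoacyl-tRNA synthetases 1 was called, *Gars*, which serves both the cytosol and mitochondria. It had 498.0, 526.0 and 519.0 CPM in AdLacZ and 415.0, 392.5 and 407.7 CPM in Ad*Lmo3* libraries (-0.34, adjusted p = 0.0266, edgeR). Without any 1 library, *Gars* did not pass the threshold (adjusted p from 0.0549 to 0.127), whereas *Trub2* passed it in 2 of the 6 such fits. The list medians were -0.0090 for assembly, -0.0077 for translation factors and -0.013 for the synthetases.

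Genes of the cytosolic ribosome, for comparison, were taken as symbols that begin with Rpl or Rps and a number, pseudogene symbols left out. The rule can also take genes for other proteins, such as the *Rps6k* kinases, and it misses ribosomal genes such as *Rplp0*. Of the 86 tested genes of this set, 0 were called by edgeR or DESeq2, against 4.28% and 8.87% of all tested genes. An unadjusted p under 0.05 was found for 6, or 6.98%, against 20.6%. The median log2 fold change of the 86 was -0.077, with 72 fitted lower and 14 higher. In 16 of them, or 18.6%, all Ad*Lmo3* libraries lay below all AdLacZ libraries, and in 0 all lay above. The shares over all tested genes were 13.2% and 13.3%. The median deviation of these genes from their own means was -0.01 to 0.13 with AdLacZ and -0.15 to 0.01 with Ad*Lmo3*, on the log2 scale. The libraries at the ends were AdLacZ replicate 2 and Ad*Lmo3* replicate 3, and the groups overlapped. For the mitoribosomal genes this quantity was -0.01 to 0.02 with AdLacZ and -0.04 to 0.02 with Ad*Lmo3*. The median over the Rpl and Rps symbols was thus the lower of both, and the difference between the sets was not tested.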

How the data were processed

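RNA-Seq was analysed for 3T3-L1 adipocytes that carried Ad*Lmo3* or AdLacZ (n = 3 libraries each). The authors deposited unnormalized counts of single 75 bp reads by gene symbol, in 1 table per library. Their processing notes name STAR 2.5.0b, DESeq2 1.6.3 and the build mm10, and the counting program, its strand setting and the annotation are not given in the sources used here. Reads on no gene (7.15% to 8.94%) or on several (0.476% to 0.543%) were left out.

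Counts were tested with edgeR 4.0.16 under R 4.3.3 (TMM, filterByExpr, quasi-likelihood test without covariates, Benjamini-Hochberg over 12766 genes, threshold 0.05). That the libraries of a group came from separate infections is stated in the design text of the series. The biological coefficient of variation was 0.119, and no replicates were alike within sampling noise (chi-square per degree of freedom 24.04 to 63.95). TMM factors ran from 0.964 to 1.04. The test was checked on simulated counts. Floors of 3 counts cover counting error only, and 3 against 3 libraries cannot give an exact permutation p below 0.1, so no single value was tested outside the model.

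Positions, exon overlaps, lengths and shared stretches of 75 bases came from GENCODE M21 (GRCm38), promoters from RefSeq (GRCm38.p6). Scripts used Python 3.11.15 and matplotlib 3.10.9. The genes were chosen by symbol. Those named were genes past the threshold in edgeR, DESeq2 or the block, the 4 highest and 4 lowest fold changes and the extreme levels per length in each subunit, genes with known roles, and selected genes of 5 other lists. The genes and lists were chosen with earlier results of these data known. Alternatives were other scalings and filters, DESeq2 1.42.0, limma 3.58.1 (voom), a replicate block, subunits by structure and leaving out each library. The principal-transcript length, the set without shared sequence and the share of tested head-to-head genes were added after seeing the data. The search for promoter motifs and the groupings by motif were not part of the planned analysis either. Microarray and tissue experiments were not analysed here.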

Additional observations from a re-analysis of the deposited data

How the results depend on the processing

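With libraries scaled by their totals, all genes shifted to a median of -0.0719 on the log2 scale, the subunit medians to -0.0875 (large) and -0.0835 (small), and 4 mitoribosomal genes were called lower, 3 large (*Mrpl22*, *Mrpl39*, *Mrpl21*) and 1 small (*Mrps23*). *Mrps30* (-0.0684), *Aurkaip1* (-0.0383) and *Dap3* (-0.00442) then turned sign. DESeq2 called 1110 genes, 1 mitoribosomal gene higher and 2 lower (2 large, 1 small). The other scalings, filters and voom gave 1 call. With a replicate block 0 mitoribosomal genes were called (0 large), with 498 calls over all genes, and *Mrpl22* (adjusted p = 0.0557, edgeR), *Nrf1* (0.0786) and *Gars* (0.0531) did not pass. Deviations of same-numbered libraries correlated by 0.0345, 0.176 and 0.176 (mean 0.129, against -0.0643 for other pairs), and 4 of 6 libraries correlated best with their own number. As 1 of the 3 pairs was under 0.1 and no label gives a shared batch, the numbers were not taken to pair the libraries. *Nrf1* also missed the threshold with RLE scaling, voom and no filter. Without genes that share sequence 0 were called (0 large), the small-subunit median was -0.0496 and large minus small 0.0358. By structure the latter was 0.0132. Leaving out each library gave 0 to 0 calls (large 0 to 0), 77 (without AdLacZ replicate 3) to 501 calls over all genes, a small-subunit median of -0.0452 to 0.00273 and large minus small of -0.00901 to 0.0231 (0.0166 without AdLacZ replicate 2, 0.0231 without Ad*Lmo3* replicate 2). Fits without a library turned the sign of *Mrpl11* (-0.0766 to 0.0598), *Mrpl23* (-0.108 to 0.0893), *Mrpl57* (-0.137 to 0.0122), *Mrps30* (-0.0476 to 0.0482), *Mrps6* (-0.104 to 0.00273), *Aurkaip1* (-0.0167 to 0.0723), *Gadd45gip1* (-0.0943 to 0.0257), *Tfam* (-0.0702 to 0.0201) and *Tufm* (-0.0269 to 0.0128). Over the single named genes and all alternatives, 494 values kept direction and side of the threshold, 28 lost and 7 gained it, and 17 turned sign; the cause was not tested. The median SE of the 77 fitted log2 fold changes was 0.0715, and the single one that passed the test was at -0.35, so that differences well above this SE can go undetected with 3 libraries per group.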
